A study of Homo sapiens with 24 samples.

Results

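The genes that bring gemcitabine into a cell, activate it, inactivate it and serve as its targets were examined in Panc-1 cells in which MIST1 or PTF1a was induced. The 10 genes were chosen by these roles: SLC29A1 and SLC29A2 (import), DCK and CMPK1 (activation), CDA, DCTD and NT5C2 (inactivation), and RRM1, RRM2 and RRM2B (targets). They are 10 of the 14413 genes listed in any of the 3 expression tables. All 10 have a row in the Tet-One and Tet-MIST1 tables and 9 have a row in the Tet-PTF1a table, where CDA was not analysed here.

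Gemcitabine is a deoxycytidine analogue and a standard drug in pancreatic cancer. It crosses the membrane through nucleoside transporters and becomes active only after phosphates are added, first by DCK and next by CMPK1. Its diphosphate blocks ribonucleotide reductase, the enzyme that makes deoxynucleotides from ribonucleotides, and its triphosphate is built into DNA. Deamination by CDA or, after the first phosphate, by DCTD inactivates the drug, and NT5C2 can remove the phosphate again. No library here came from cells given gemcitabine, so that all values are transcript levels of the pathway without the drug.

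Panc-1 cells are a long-established human line derived from pancreatic ductal cancer. Cells carried the Tet-One plasmid either empty (Tet-One), with the rat MIST1 open reading frame (Tet-MIST1) or with that of mouse PTF1a (Tet-PTF1a), the latter pair tagged with myc, and all lines were selected in puromycin and screened as individual clones. Each line was grown for 72 h without doxycycline (Control) or with 1 µg/ml doxycycline (Dox), with 4 replicate libraries of polyadenylated RNA per group and 24 libraries in all. The passage number was 32 for Tet-One and Tet-PTF1a and 33 for Tet-MIST1. Differences between lines, between clones and between the separately deposited tables cannot be told apart.

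Between 17210989 and 43018494 reads were counted per library, with Tet-PTF1a Dox the shallowest group (17210989 to 32383375). Of 36 pairs of replicates, all differed by more than counting noise, with a chi-square of at least 1.38 per degree of freedom. Tet-One Dox replicate 1 stood apart, with 221 to 236 in its 3 pairs against at most 44.9 in the other 33, and the Tet-One values of the 10 genes are given with and without it. Tet-MIST1 Dox replicate 1 came next, with 27.2 to 44.9 in its 3 pairs against at most 12.7 in the rest. Reads at the human PTF1A gene, at most 2 in each Tet-PTF1a Control library, were 53 to 168 in the Dox libraries, although the induced frame is that of the mouse. PTF1A had no row in the other tables, and BHLHA15, the human gene for MIST1, had none in the Tet-MIST1 table, so that induction of MIST1 was not checked here. All 7 epithelial and ductal markers (such as KRT8, KRT18 and EPCAM) were listed in all 3 tables, with a sum of 1701 to 8105 CPM (reads scaled by the authors to the size of the library) per library. None of 4 endothelial markers was listed. Of the leukocyte markers, CD14 was listed, at no more than 1.40 CPM, and of the fibroblast markers COL1A1 and, in Tet-PTF1a, COL3A1.

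The genes differed in level by more than 2 orders of magnitude when counts were divided by exon length (RPKM, reads scaled to exon length and library size, with a scaling factor fitted over all 24 libraries because the tables were normalized separately). In Tet-One Control, SLC29A1 was highest with 152 ± 6.36 RPKM (SD, n = 4), followed by RRM1 with 85.1 ± 1.23 and RRM2 with 79.4 ± 4.24. NT5C2 (51.8 ± 3.08), CMPK1 (37.9 to 41.5), DCTD (37.6 ± 0.860) and SLC29A2 (24.4 ± 1.41) were intermediate. DCK, the kinase that adds the first phosphate, was low, with 16.9 ± 0.690 RPKM, as was RRM2B with 10.9 ± 0.967. CDA, the main deaminase of the drug, was lowest with 0.769 ± 0.147 RPKM. Among neighbours in this order, the ranges of RRM1 and RRM2 and those of CMPK1 and DCTD overlapped.

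**Figure D1:**
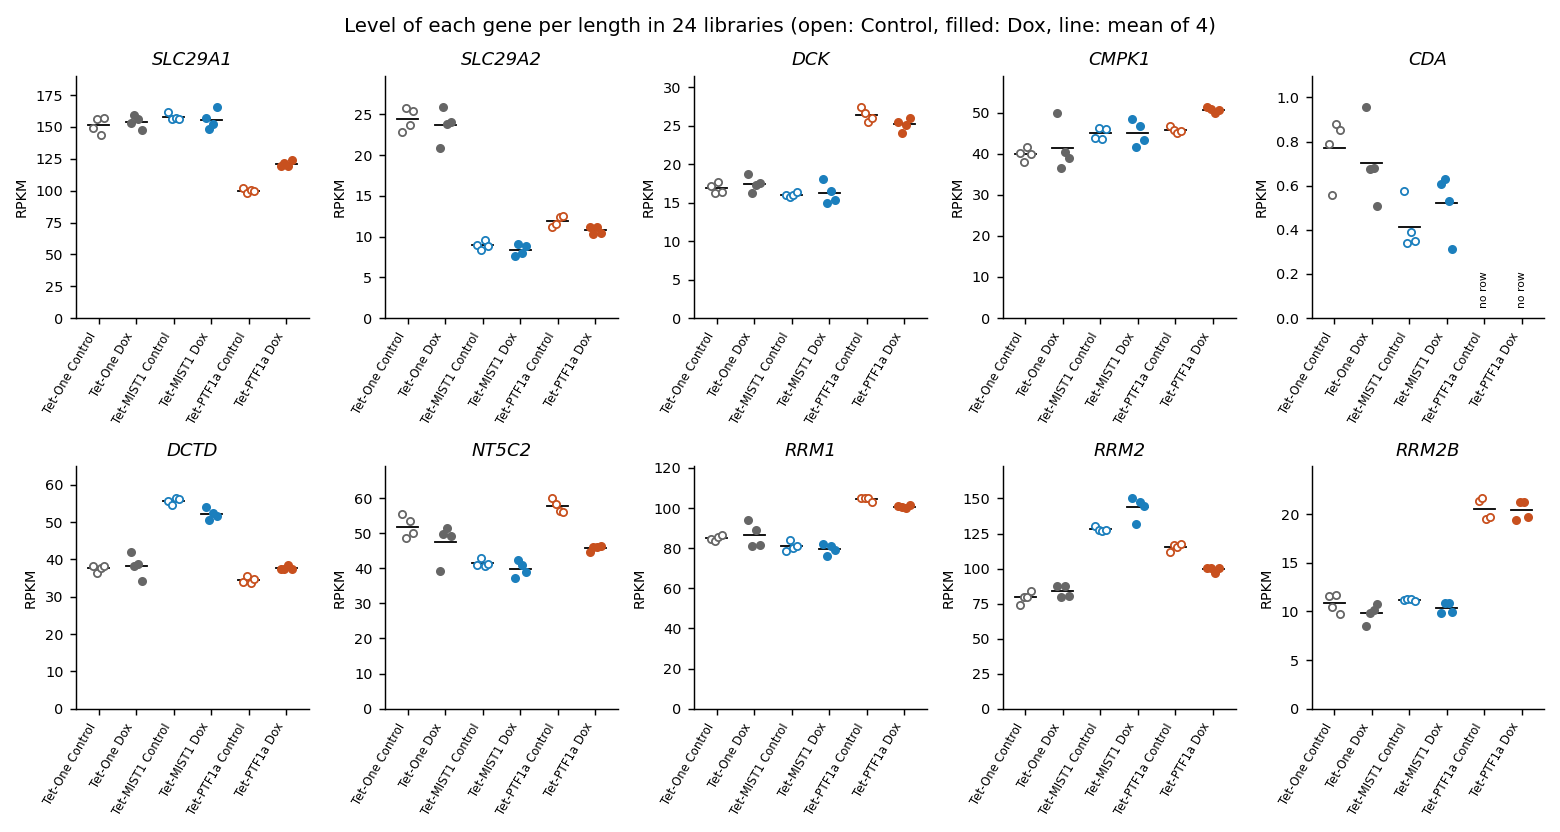
Level per length (RPKM, y axis from 0) of the 10 genes in each of the 24 libraries, by line and treatment (x axis). Each point is a library, open for Control and filled for Dox, and the black line is the mean of 4. SLC29A2 points separate by line, DCK and RRM2B points are higher in Tet-PTF1a than in both other lines, and SLC29A1 rises with Dox in Tet-PTF1a, where the 4 Dox libraries still lie below those of both other lines.

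The main question was whether Dox changed these transcripts in each line. Called here means a false discovery rate (FDR, Benjamini-Hochberg) under 0.05 in edgeR's quasi-likelihood test over all genes of a table. In Tet-PTF1a, 7 of the 9 genes were called, 3 higher and 4 lower with Dox, against 48.2% of all 14053 genes tested in that line (23.8% higher and 24.4% lower). SLC29A1, CMPK1 and DCTD rose, and SLC29A2, NT5C2, RRM1 and RRM2 fell. No change exceeded 0.33 in size on the log2 scale. With all 24 libraries in a single fit, where the lines share an estimate of the spread, 3 of these 7 were called (SLC29A1, NT5C2 and RRM2). In Tet-MIST1 RRM2 rose and the other 9 of 10 genes were not called, against 20.6% of 13623 genes called (11.9% higher and 8.77% lower). In Tet-One 0 of 10 genes and 0.0% of 13428 genes were called by edgeR, and 0 also with DESeq2; 401 of all genes, and 0 of the 10, had an unadjusted p under 0.05. The spread between libraries differed between lines (biological coefficient of variation 2.80% in Tet-PTF1a and 14.4% in Tet-One), with Tet-One Dox replicate 1 included. In simulated data, all genes of a line were given this same spread. There, 5% of log2 changes of 0.3 in size were recovered in Tet-One, against 95% in Tet-PTF1a. Over all genes, the 0 calls in Tet-One thus do not show that changes of this size were absent there. Tet-One 95% confidence intervals reached beyond this size for CDA (-0.64 to 0.39), NT5C2 (-0.35 to 0.10) and RRM2B (-0.36 to 0.07). Those of the others of the 10 genes stayed within it. Scaling by library size in place of edgeR's TMM method raised the share of higher calls over all genes in Tet-PTF1a from 49.4% to 61.9%.

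**Figure D2:**
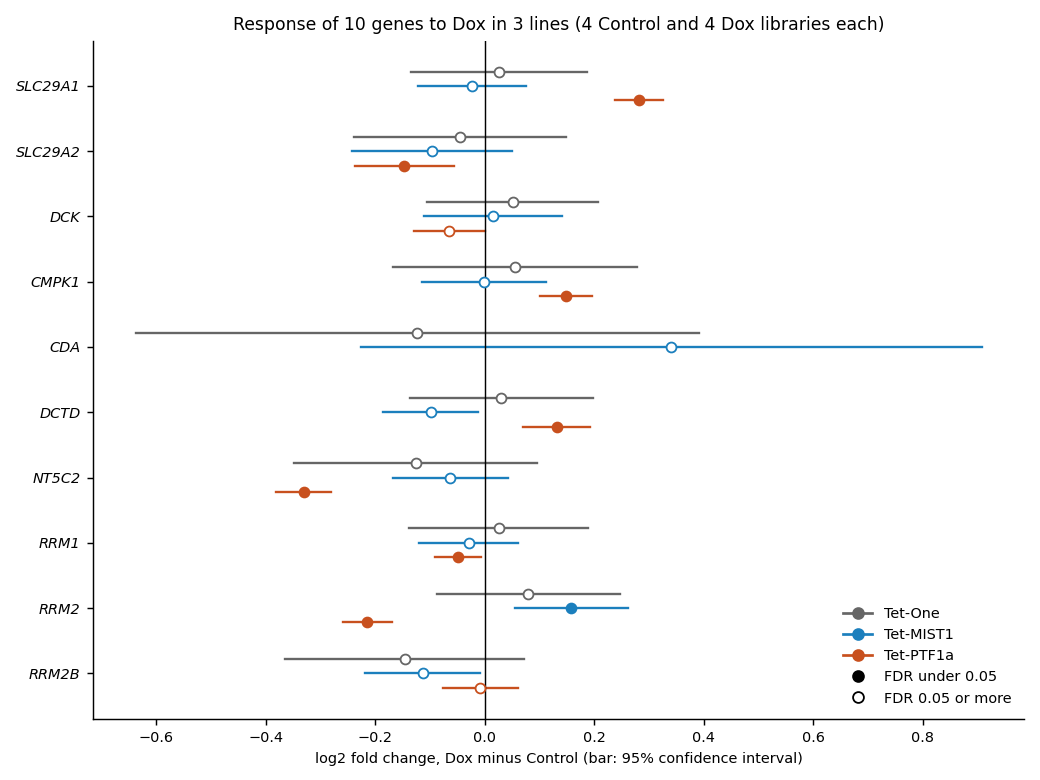
Log2 fold change of Dox against Control (x axis) for each of the 10 genes in the 3 lines, with 4 libraries per group. Bars are 95% confidence intervals and filled points have an FDR under 0.05; SLC29A1 (0.28) and NT5C2 (-0.33) in Tet-PTF1a lie farthest from 0 among the filled points, and CDA has the widest intervals.

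SLC29A1 encodes ENT1, the equilibrative nucleoside transporter that carries most gemcitabine into cells. Its exons lie on chr6:44187242-44201888 (plus strand, hg19). In Tet-PTF1a its deposited CPM were 313, 301, 312 and 305 in Control replicates 1 to 4 and 370, 375, 368 and 383 in Dox replicates 1 to 4. Every Dox library lay above every Control library, and 42.3% of the genes listed for that line had groups that did not overlap in either direction. The log2 fold change was 0.28 (SE 0.0218, FDR 9.49e-16 by edgeR's quasi-likelihood test), a mean CPM higher by 21.5%. In Tet-MIST1 the ranges overlapped, from 460.2 to 476 CPM in Control and from 436 to 484 in Dox (log2 fold change -0.02, FDR 0.744 by edgeR). In Tet-One they also overlapped, from 422 to 464 and from 434 to 468 CPM (0.03, FDR 0.920 by edgeR, and 0.03 without Dox replicate 1). In Tet-One no gene of the 10 had groups that did not overlap, against 2.49% of the genes listed there.

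SLC29A2 encodes ENT2, the second equilibrative transporter, which carries nucleosides and nucleobases. It lies on chr11:66129992-66139947 (minus strand, hg19), and 279 of its 2890 exon bases overlap a transcript on the other strand. Its CPM in Tet-PTF1a were 33.0, 34.6, 37.3 and 37.4 in Control and 33.4, 30.6, 33.3 and 31.3 in Dox. Dox replicates 1 and 3 lay above Control replicate 1, so that the groups overlapped. It fell by 0.15 on the log2 scale (SE 0.0451, FDR 0.00601 by edgeR), and without Control replicate 4 it was not called (log2 fold change -0.11, FDR 0.0550 by edgeR). The log2 fold change was -0.10 in Tet-MIST1 and -0.05 in Tet-One (0.0083 without Dox replicate 1 of Tet-One), and neither was called. The importers thus moved apart in Tet-PTF1a, and the ratio of SLC29A1 to SLC29A2 (RPKM) had a median of 8.27 in Control (7.91 to 9.17) and of 11.3 in Dox (10.7 to 11.9).

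The bases before the first of 2 listed start sites of SLC29A1 are shown because its response to Dox in Tet-PTF1a differed from that in both other lines. PTF1A and MIST1 are basic helix-loop-helix proteins that bind E boxes (CANNTG), with CAGCTG among the preferred forms, and PTF1A is known to bind an E box together with a TC box (TGGGAAA). The sequence is the 250 bases before the start in RefSeq (GRCh38.p14, chr6:44219365-44219614, plus strand), with CAGCTG in capitals, which begins 48 bases before the start. Another CANNTG begins 245 bases before it, and there is no TGGGAAA from 250 bases before to 50 after the start, on either strand. The second start has no CAGCTG in the same window and 1 CANNTG, at base 45 after that start.
SLC29A1: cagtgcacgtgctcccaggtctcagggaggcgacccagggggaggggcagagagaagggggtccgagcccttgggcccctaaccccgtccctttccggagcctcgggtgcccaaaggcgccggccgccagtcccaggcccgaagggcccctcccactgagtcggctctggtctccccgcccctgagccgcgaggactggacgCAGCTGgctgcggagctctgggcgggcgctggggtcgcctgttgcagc

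DCK, deoxycytidine kinase, adds the first phosphate and is regarded as the rate-limiting step of activation. It lies on chr4:71859265-71896629 (plus strand, hg19). In Tet-PTF1a the CPM were 73.3, 71.7, 68.8 and 69.7 in Control and 68.7, 64.7, 67.4 and 70.1 in Dox. The groups overlapped through Dox replicate 4. DCK was not called (log2 fold change -0.06, 95% confidence interval -0.13 to 0.00, FDR 0.0998 by edgeR). Without Dox replicate 4 it was called, at -0.09 (FDR 0.0341 by edgeR). It was not called in Tet-MIST1 (0.01) or Tet-One (0.05, and 0.013 without Dox replicate 1 of Tet-One). In all, 199 of its 2605 exon bases are shared with MOB1B on the same strand, which was not called in Tet-PTF1a (0.06, FDR 0.127 by edgeR).

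CMPK1, the UMP/CMP kinase that adds the second phosphate, lies on chr1:47799469-47844511 (plus strand, hg19). Its CPM in Tet-PTF1a were 168, 166, 164 and 164 in Control and 186, 184, 181 and 183 in Dox, without overlap. It rose by 0.15 on the log2 scale (SE 0.0239, FDR 8.35e-07 by edgeR). In Tet-MIST1 the log2 fold change was -0.00 (95% confidence interval -0.12 to 0.11). In Tet-One it was 0.06, and there Dox replicate 1 had 171 CPM against 127 to 139 in the other Dox libraries and 131 to 143 in Control; without it the value was -0.05.

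CDA, cytidine deaminase, turns gemcitabine into its inactive uridine form before any phosphate is added. It lies on chr1:20915444-20945400 (plus strand, hg19) and was near the detection limit. The 8 Tet-One libraries held 17 to 34 reads each and the 8 Tet-MIST1 libraries 10 to 23, or 0.478 to 0.896 CPM and 0.293 to 0.594 CPM. With so few reads a change was hard to detect, and the 95% confidence intervals ran from -0.64 to 0.39 in Tet-One and from -0.23 to 0.91 in Tet-MIST1. The log2 fold change in Tet-One was -0.12, and -0.31 without Dox replicate 1. DCK stood above CDA per length in each of these libraries, with ratios of 19.2 to 34.7 in Tet-One and 23.8 to 49.4 in Tet-MIST1. The levels of both groups overlapped in each of the lines.

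DCTD, dCMP deaminase, acts on the monophosphate of the drug and also supplies the precursor of thymidylate. It lies on chr4:183811244-183838630 (minus strand, hg19). In Tet-PTF1a its CPM were 71.2, 75.0, 71.3 and 73.1 in Control and 78.8, 78.7, 81.3 and 78.9 in Dox, without overlap. It rose by 0.13 on the log2 scale (SE 0.0305, FDR 3.29e-04 by edgeR). In Tet-MIST1 its CPM were 112, 111, 114 and 113 in Control and 107, 102, 105 and 103 in Dox. All Dox libraries lay below all Control libraries there, as for 26.7% of the genes listed for that line when either direction is counted, but the log2 fold change of -0.10 was not called (FDR 0.0960 by edgeR). DESeq2 called it (FDR 0.0497), as did edgeR without Dox replicate 1 (FDR 0.0356). In Tet-One the groups overlapped (0.03, and -0.017 without Dox replicate 1).

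NT5C2, a cytosolic nucleotidase that removes phosphate from nucleoside monophosphates, had the largest change of the called genes. It lies on chr10:104847774-104953063 (minus strand, hg19). Its CPM in Tet-PTF1a were 218, 212, 207 and 203 in Control and 163, 168, 168 and 169 in Dox. All 4 Dox libraries lay below all 4 Control libraries. NT5C2 fell by 0.33 on the log2 scale (SE 0.0249, FDR 3.33e-16 by edgeR), and its mean CPM fell by 20.5%. CNNM2 lies on the opposite strand over 1892 of the 3534 exon bases of NT5C2 (53.5%), and the sources used here do not state whether strand was used in counting, so that reads of this pair may not be told apart. CNNM2 itself fell by 0.17 on the log2 scale in Tet-PTF1a, from 33.3 ± 0.747 to 29.4 ± 0.961 CPM (SD, n = 4; FDR 7.43e-04 by edgeR). In Tet-MIST1 and Tet-One, NT5C2 had log2 fold changes of -0.06 and -0.13 and was not called. In Tet-One, Dox replicate 1 had 136 CPM against 171 to 179 in the other Dox libraries, and without it the log2 fold change was -0.05.

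RRM2 is the small subunit of ribonucleotide reductase that is made in S phase. It lies on chr2:10262695-10271546 (plus strand, hg19). In Tet-PTF1a its CPM were 395, 415, 411 and 415 in Control and 357, 356, 343 and 355 in Dox, and it fell by 0.21 on the log2 scale (SE 0.0220, FDR 9.00e-12 by edgeR). In Tet-MIST1 its CPM were 443, 434, 431 and 434 in Control and 501, 445, 496 and 487 in Dox, and it rose by 0.16 (SE 0.0472, FDR 0.0356 by edgeR). The groups did not overlap in either line, and the directions were opposite. The rise in Tet-MIST1 was called in 2 of the 8 fits that left out a library each, with FDR from 0.00571 to 0.104 by edgeR, and it was not called when the left-out library was any of the Control replicates or Dox replicate 3 or 4. In Tet-One the ranges overlapped, with up to 286 CPM in Control and at least 269 in Dox (0.08, FDR 0.897 by edgeR, and 0.055 without Dox replicate 1). RRM2 has 3 pseudogenes named after it, to which reads could be assigned.

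The bases before RRM2 are shown because it had the largest of the called differences in response between lines. They are the 250 bases before the first of 2 listed starts in RefSeq (GRCh38.p14, chr2:10122489-10122738, plus strand), with CCAAT in capitals on either strand. CCAAT is the box bound by the factor NF-Y and occurs 3 times, beginning 123, 93 and 66 bases before the start. No CANNTG and no TGGGAAA was found from 250 bases before to 50 after this start.
RRM2: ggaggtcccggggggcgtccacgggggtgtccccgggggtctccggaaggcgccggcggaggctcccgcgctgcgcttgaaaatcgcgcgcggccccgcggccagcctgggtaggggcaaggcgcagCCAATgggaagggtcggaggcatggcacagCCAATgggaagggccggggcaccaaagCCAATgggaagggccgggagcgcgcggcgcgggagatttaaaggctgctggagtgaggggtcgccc

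RRM1 is the large subunit, which gemcitabine's diphosphate inactivates, and lies on chr11:4115924-4160106 (plus strand, hg19). Its CPM in Tet-PTF1a were 343, 345, 347 and 338 in Control and 333, 331, 329 and 334 in Dox. The groups did not overlap, but the difference was small, a fall of 0.05 on the log2 scale (SE 0.0211, FDR 0.0491 by edgeR). The call was lost with DESeq2 (FDR 0.0613), with library size scaling (edgeR FDR 0.653), and in 6 of the 8 edgeR fits that left out a library. In Tet-MIST1 and Tet-One the ranges overlapped, with log2 fold changes of -0.03 and 0.03, the latter -0.019 without Tet-One Dox replicate 1.

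RRM2B is the small subunit that p53 induces outside S phase. In Tet-PTF1a its CPM were 114, 116, 105 and 106 in Control and 105, 114, 114 and 106 in Dox, so that the groups overlapped (log2 fold change -0.01, 95% confidence interval -0.08 to 0.06). In Tet-MIST1 its 4 Dox libraries, from 49.8 to 55.5 CPM, lay below the 4 Control libraries, from 57.0 to 57.9, without being called (-0.11, FDR 0.112 by edgeR). Groups that did not overlap in either direction were found for 26.7% of the genes listed for that line. In Tet-One the groups overlapped (-0.15, FDR 0.897 by edgeR), and the lowest Dox library was again replicate 1, with 43.3 CPM. Without it the log2 fold change was -0.086.

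With Dox, the ratio of RRM2 to RRM2B was higher in every Tet-MIST1 library and lower in every Tet-PTF1a library than in the Control libraries of the line. This ratio (RPKM) had a median of 11.4 in Tet-MIST1 Control (11.3 to 11.7) and of 14.0 in Dox (12.2 to 15.2), and of 5.66 in Tet-PTF1a Control (5.26 to 5.95) and 4.90 in Dox (4.55 to 5.17). RRM1 to RRM2 had a median of 0.902 in Tet-PTF1a Control (0.878 to 0.934) and of 1.01 in Dox (1.00 to 1.03), and of 0.631 and 0.549 in Tet-MIST1. In Tet-One both ratios overlapped between groups with all libraries included. Without Tet-One Dox replicate 1, RRM1 to RRM2 did not overlap there, with at most 1.02 in Dox and at least 1.03 in Control, also lower with Dox. These ratios are descriptions and were not tested.

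**Figure D3:**
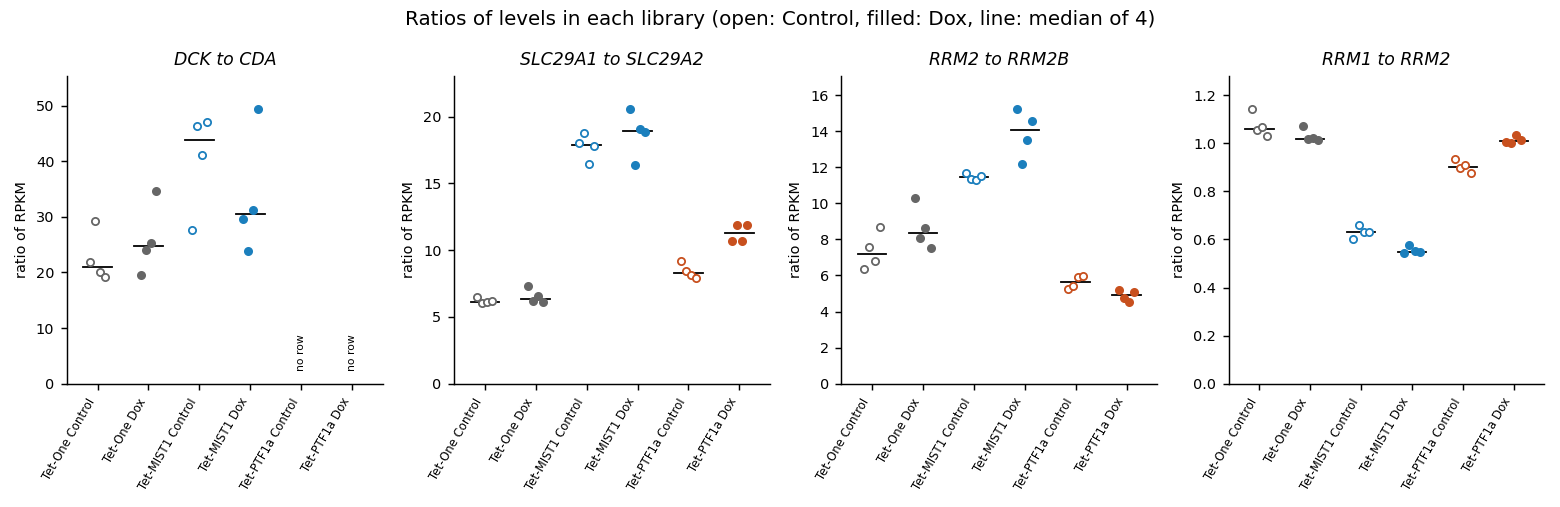
Ratio of the levels per length (RPKM, y axis from 0) of DCK to CDA, SLC29A1 to SLC29A2, RRM2 to RRM2B and RRM1 to RRM2 in each library, by line and treatment. Points are libraries (open Control, filled Dox) and black lines are medians of 4; SLC29A1 to SLC29A2 rises from 8.27 to 11.3 with Dox in Tet-PTF1a and is highest in Tet-MIST1, with medians of 17.9 and 18.9.

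Whether the response of a gene differed between lines was tested in fits of 16 libraries, a pair of lines at a time, through the interaction term. The tests against Tet-One share the Tet-One libraries. Against Tet-One, 2 of 9 genes responded differently in Tet-PTF1a, where 12.8% of 13519 genes did. In simulated data, all genes were given the spread of this fit, and 8% of log2 differences of 0.3 in size were recovered. Over all genes, differences of this size could thus be missed. Among uncalled genes, 95% confidence intervals stayed within this size for DCTD (-0.06 to 0.25), DCK (-0.27 to 0.03) and RRM1 (-0.22 to 0.07). They reached beyond it for SLC29A2 (-0.31 to 0.11), CMPK1 (-0.12 to 0.304), NT5C2 (-0.42 to 0.01) and RRM2B (-0.09 to 0.36). The response of SLC29A1 was higher in Tet-PTF1a by 0.25 on the log2 scale (SE 0.0664, FDR 0.0174 by edgeR) and that of RRM2 lower, with a difference of -0.30 (SE 0.0730, FDR 0.0125 by edgeR). With the replicate number as a block, neither SLC29A1 (FDR 0.0841 by edgeR) nor RRM2 (FDR 0.0733 by edgeR) was called. With Tet-One Dox replicate 1 left out, 5 of 9 genes and 30.7% of all genes were called. Those added were CMPK1 (difference 0.20, FDR 0.00131 by edgeR), DCTD (0.15, FDR 0.0334) and NT5C2 (-0.28, FDR 5.86e-05), and SLC29A1 (0.26) and RRM2 (-0.27) remained.

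Against Tet-MIST1, 5 of 9 genes responded differently in Tet-PTF1a, where 36.4% of 13519 genes did. The response was higher in Tet-PTF1a for SLC29A1 (difference 0.32, SE 0.0494, FDR 3.70e-05 by edgeR), DCTD (0.24, FDR 4.18e-04) and CMPK1 (0.16, FDR 0.0351). The CMPK1 call was lost in 11 of the 16 fits that left out a library (edgeR FDR up to 0.103), namely those without any Tet-PTF1a library but Control replicate 1, or without Tet-MIST1 Control or Dox replicate 2 or 4. The response was lower in Tet-PTF1a for RRM2 (-0.36, SE 0.0531, FDR 1.63e-05 by edgeR) and NT5C2 (-0.26, FDR 7.82e-04). For DCK the difference was -0.07 (95% confidence interval -0.21 to 0.07) and for SLC29A2 -0.04 (-0.21 to 0.14), and neither was called. Of 10 genes compared between Tet-MIST1 and Tet-One, 0 were called by edgeR, and 0 by DESeq2, and 0 had an unadjusted p under 0.05, where 1.66% of 13879 genes were called. Without Tet-One Dox replicate 1, 0 of the 10 and 13.9% of all genes were called.

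Before induction the lines already differed in most of these genes, as they did in most of all genes tested. Over the 12 Control libraries in a single fit, 6 of 9 genes differed between Tet-MIST1 and Tet-One (81.7% of 13517 genes), 9 of 9 between Tet-PTF1a and Tet-One (80.1%) and 8 of 9 between Tet-PTF1a and Tet-MIST1 (85.1%). Relative to Tet-One, SLC29A2 was lower in Tet-MIST1 (log2 difference -1.45, SE 0.0499, FDR 2.33e-18 by edgeR) and in Tet-PTF1a (-1.05, SE 0.0501). SLC29A1 was lower in Tet-PTF1a than in Tet-One (-0.61, SE 0.0309, FDR 5.68e-15 by edgeR) and did not pass between Tet-MIST1 and Tet-One (0.07, FDR 0.0518 by edgeR). The latter difference was called by edgeR with library size scaling (0.12, FDR 6.19e-04) and upper quartile scaling (0.10, FDR 0.00519). It was also called by edgeR with at least 10 counts in every library (FDR 0.0456) and without Tet-One Control replicate 2 (FDR 0.0249) or 4 (FDR 0.0185). Per length, SLC29A1 had 152 ± 6.36 RPKM in Tet-One Control, 158 ± 2.47 in Tet-MIST1 Control and 100.05 ± 1.83 in Tet-PTF1a Control. It reached 121 ± 2.27 RPKM in Tet-PTF1a Dox (SD, n = 4), below all libraries of the other lines, which had at least 144 RPKM.

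DCK was higher in Tet-PTF1a Control than in Tet-One Control by 0.63 (SE 0.0376, FDR 1.23e-13 by edgeR) and RRM2B by 0.91 (SE 0.0491, FDR 2.24e-13 by edgeR). RRM2 was higher than in Tet-One Control in both other lines, by 0.70 in Tet-MIST1 and 0.53 in Tet-PTF1a. DCTD was higher by 0.58 in Tet-MIST1 and lower in Tet-PTF1a (-0.13), and NT5C2 was lower in Tet-MIST1 (-0.32) and higher in Tet-PTF1a (0.14). RRM1 was higher in Tet-PTF1a by 0.28 and CMPK1 in both, by 0.19 and, in Tet-MIST1, by 0.18. RRM1 between Tet-MIST1 and Tet-One (-0.06, FDR 0.0408 by edgeR) lost its call with library size and with upper quartile scaling and in 9 of the 12 fits that left out a library. DCTD between Tet-PTF1a and Tet-One lost it with library size scaling (-0.05, FDR 0.149 by edgeR). For SLC29A1, SLC29A2, DCK, RRM1, RRM2 and RRM2B, the difference between Tet-PTF1a Control and Tet-One Control was larger in size than the response of Tet-PTF1a to Dox, for NT5C2 it was smaller (0.14 against -0.33), and CMPK1 (0.19 against 0.15) and DCTD (-0.13 against 0.13) had values close in size. Both of these comparisons use the Tet-PTF1a Control libraries. Over the 6 groups the highest mean RPKM exceeded the lowest 2.92-fold for SLC29A2, 2.10-fold for RRM2B, 1.81-fold for RRM2, 1.64-fold for DCK and 1.58-fold for SLC29A1, and 1.27-fold for CMPK1.

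**Figure D4:**
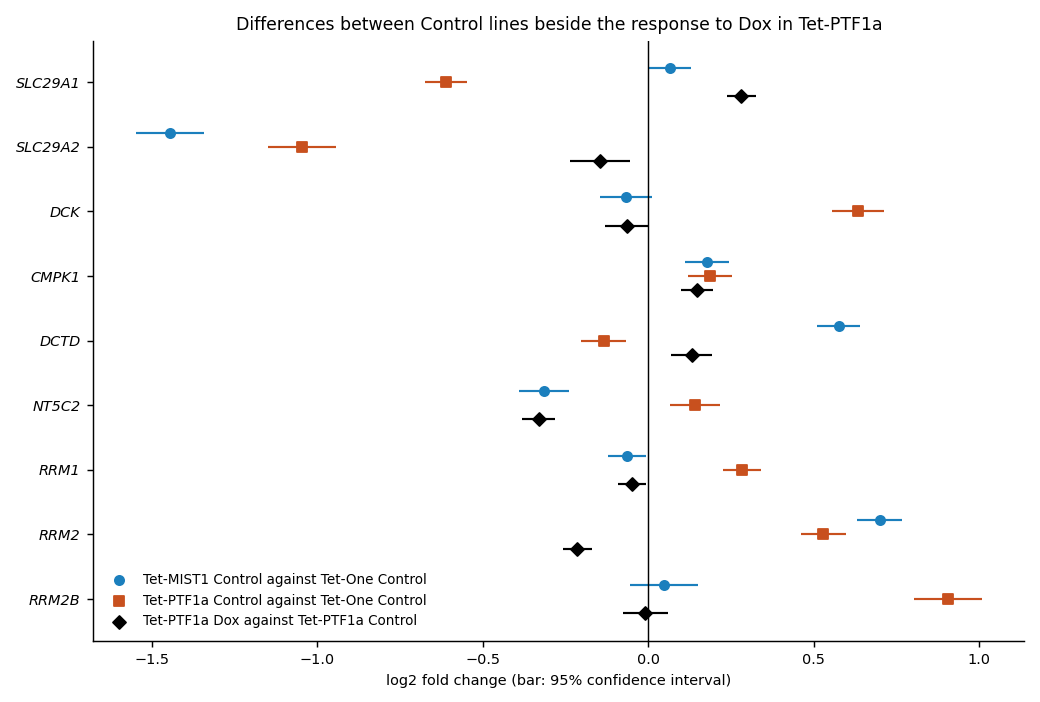
Log2 fold change (x axis) of Tet-MIST1 Control and Tet-PTF1a Control against Tet-One Control, and of Tet-PTF1a Dox against Tet-PTF1a Control, for the 9 genes in all 3 tables. Bars are 95% confidence intervals; the differences between lines reach -1.45 for SLC29A2 and 0.91 for RRM2B, and the responses to Dox stay between -0.33 and 0.28.

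Of the other nucleoside transporters, SLC28A1, SLC28A2 and SLC28A3, which encode concentrative transporters, have no row in any of the 3 tables. SLC29A3, a transporter of lysosomes and mitochondria, rose in Tet-MIST1 from 6.48 ± 0.338 to 9.59 ± 0.755 CPM (SD, n = 4; log2 fold change 0.58, FDR 3.34e-04 by edgeR) and was not called in Tet-PTF1a (-0.17). SLC29A4, a monoamine transporter, fell by 0.24 on the log2 scale in Tet-MIST1 (FDR 0.0318 by edgeR) and by 0.24 in Tet-PTF1a (FDR 1.09e-05 by edgeR).

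Of 19 nucleoside and nucleotide kinases, nucleotidases and related enzymes tested in Tet-PTF1a, 2 rose and 7 fell, with a median log2 fold change of -0.08 against 0.00 over all genes. That is 9 of 19, close to the 48.2% called over all genes in that line. NT5E, the ecto-nucleotidase CD73, fell from 298 ± 4.47 to 172 ± 4.06 CPM (SD, n = 4; log2 fold change -0.79, FDR 1.53e-32 by edgeR). SAMHD1, which degrades deoxynucleotide triphosphates, rose from 18.8 ± 0.836 to 23.0 ± 0.661 CPM (0.28, FDR 9.11e-06 by edgeR), as did DGUOK, a mitochondrial deoxynucleoside kinase (0.24). TK1, thymidine kinase, fell by 0.09 (FDR 0.00955 by edgeR). The median of this list in Tet-One was 0.11, with Dox replicate 1 included. In Tet-MIST1, 5 of 19 rose and 2 fell, with a median of 0.12, where 11.9% of all genes rose and 8.77% fell. NME2, a nucleoside diphosphate kinase whose reads may be shared with close relatives, rose by 0.38 (FDR 0.0320 by edgeR) and TK1 by 0.32 (FDR 0.00830), while SAMHD1 (-0.37, FDR 0.00505) and NT5E (-0.22, FDR 0.0116) fell.

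Of 11 genes of pyrimidine synthesis and thymidylate metabolism, 1 rose and 6 fell in Tet-PTF1a (median -0.07), where 23.8% of all genes rose and 24.4% fell, and 0 were called in Tet-MIST1 by edgeR (median -0.02), where 4 had an unadjusted p under 0.05. Their median in Tet-One was 0.11, with Dox replicate 1 included. UPP1, uridine phosphorylase, fell from 82.5 ± 0.907 to 48.6 ± 1.19 CPM in Tet-PTF1a (-0.76, FDR 6.90e-26 by edgeR). TYMP (-0.47), CTPS2 (-0.43), CTPS1 (-0.36) and CAD (-0.15) also fell. TYMS, thymidylate synthase, fell by 0.07 (FDR 0.00840 by edgeR), and UMPS, which makes UMP, rose by 0.08 (FDR 0.0394 by edgeR).

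Of 9 subunits of DNA polymerases alpha, delta and epsilon, which build the drug into DNA, 2 rose and 2 fell in Tet-PTF1a (median -0.01). The shares called among these subunits and among the proliferation and p53 genes lie near the 48.2% of all genes called in Tet-PTF1a, and in Tet-MIST1 the background was 20.6%. POLD2 rose by 0.26 (FDR 2.27e-11 by edgeR) and POLD3 fell by 0.14 (FDR 5.42e-04). POLA2 was the 1 of 9 called in Tet-MIST1 (0.13, FDR 0.0421 by edgeR). Of 18 proliferation genes, 3 rose and 7 fell in Tet-PTF1a (median -0.03), among them E2F2 (0.37) and E2F1 (-0.22), transcription factors of the cell cycle, and in Tet-MIST1 3 of 18 rose and 0 fell, with GMNN at 0.20 the largest. Of 10 targets of p53, 4 rose and 1 fell in Tet-PTF1a (median 0.06). GDF15 rose by 0.52 (FDR 0.0276 by edgeR) and MDM2 fell by 0.10 (FDR 0.00175 by edgeR). In Tet-MIST1 3 of 10 rose and 1 fell, with GDF15 (0.35) and SESN2 (-0.26) the farthest from 0 among those called. The median of these targets was 0.06 in Tet-MIST1 too, and 0.055 in Tet-One with Dox replicate 1 included. Panc-1 carries mutant p53, and these genes were listed because RRM2B is a p53 target. In Tet-One 0 of the 68 genes tested in these 6 lists were called by edgeR or DESeq2, and 7 had an unadjusted p under 0.05.

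**Figure D5:**
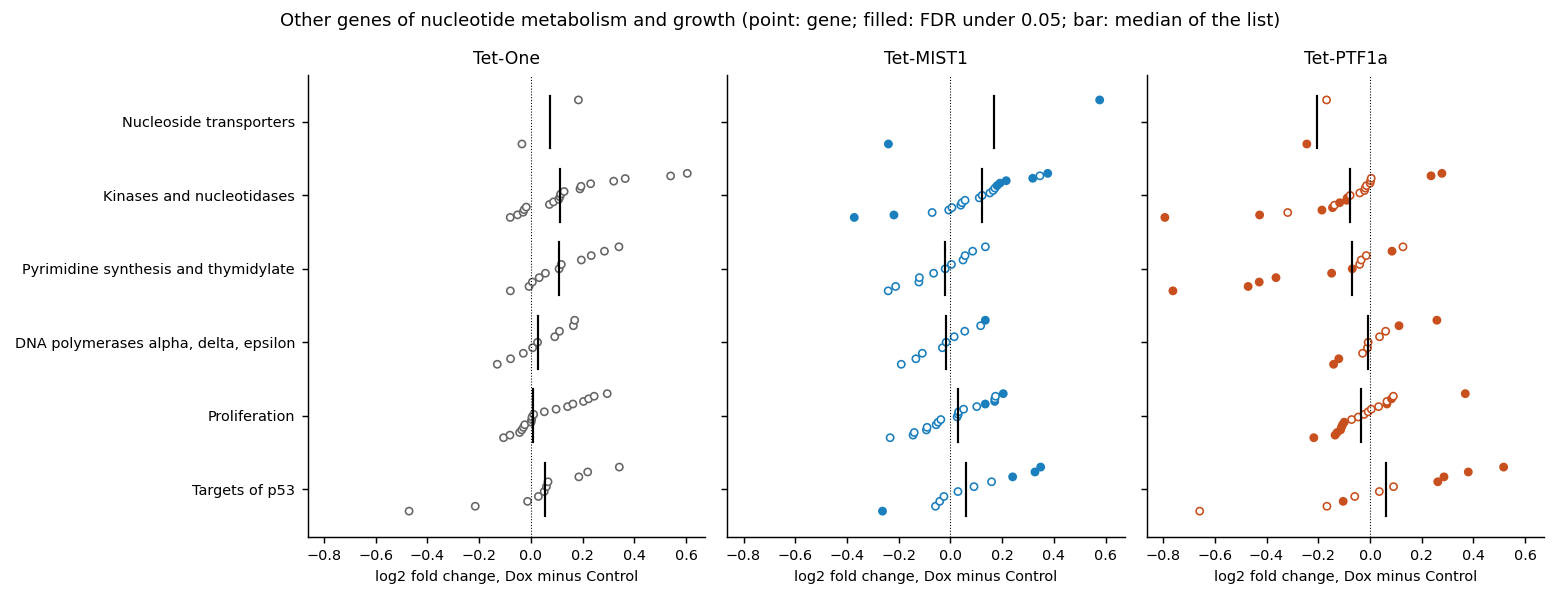
Log2 fold change of Dox against Control (x axis) of each tested gene in 6 lists (rows) for Tet-One, Tet-MIST1 and Tet-PTF1a. Filled points have an FDR under 0.05 and black bars are list medians; NT5E (-0.79) and UPP1 (-0.76) are the lowest called points in Tet-PTF1a, and no point is filled in Tet-One.

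These are bulk libraries, in which fewer cells of a type and less RNA per cell cannot be told apart. In Tet-PTF1a the summed level of the 7 epithelial and ductal markers was 3462 to 3633 CPM in Control and 1755 to 1810 CPM in Dox, and its part in the changes above was not tested. COL1A1 and COL3A1 together had 155 to 163 CPM in Control and 79.7 to 82.6 CPM in Dox of that line.

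The genes whose pattern was most like that of a given gene were sought over the 24 libraries after the mean of each line was subtracted, among 13518 genes. The libraries share lines and depth, so that these correlations are descriptions. For SLC29A1 they were PRPF19 (r = 0.938), MYEOV (0.937) and ARC (0.925). For DCK they were SSR1 (0.807), LAMTOR3 (0.806) and CENPK (0.798), and for RRM2 they were STAMBPL1 (0.904), IGFBP7 (0.886) and LMNB1 (0.877). Without Tet-One Dox replicate 1 the closest gene became VPS37B for SLC29A1 (0.949), TSN for DCK (0.803) and YWHAQ for RRM2 (0.921).

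Promoters of 8 of the 10 genes were in the RefSeq table, with 13 start sites, and SLC29A2 and RRM2B were without an entry. Counting any start, on either strand and from 250 bases before to 50 after it, CANNTG occurred in 7 of the 8 genes against 68.7% of 35116 promoters. CAGCTG, which is also a CANNTG, occurred in 3 of 8 against 17.9%. Of these, SLC29A1 rose, NT5C2 fell and DCK was not called in Tet-PTF1a with Dox. TGGGAAA occurred in 0 of 8 against 7.92%, CCAAT in 2 of 8 against 34.6%, and an E2F site (TTTCCCGC, TTTCGCGC, TTTGCCGC or TTTGGCGC) in 2 of 8 against 3.31%. Genes with several starts had more windows in which to hold a match than a single promoter. A match says only that the letters occur in the window.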

How the data were processed

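Per the labels and the study's methods, polyadenylated RNA was sequenced as paired ends. The authors deposited, for each line, a table of raw counts per gene and of CPM per library (a depth-scaled signal whose sum differs between libraries), with exon length, position (hg19) and their own log2 fold changes and p-values, which were not used. The submitters' processing notes name TopHat, HTSeq, DESeq and edgeR without versions, and use of strand in counting is not given in the sources used here. The members and the gene lists were chosen with earlier results of these data known.

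Counts were tested with edgeR 4.0.16 (quasi-likelihood, TMM, robust; R 4.3.3) on genes over 0.5 CPM in at least 4 libraries, with Benjamini-Hochberg adjustment over all genes of a fit and an FDR threshold of 0.05. Fits used the 8 libraries of a line, 16 for an interaction of line and Dox, and 12 for Control levels. Fold changes are log2 as given by the fits, and log2 CPM for correlations used a prior count of 2. RPKM was computed from counts and exon length with TMM over genes shared by the tables. DESeq2 1.42.0, other scalings, filters, a replicate block, a fit of all 24 libraries and the removal of each library were alternatives. Depth was 17210989 to 43018494 counts per library. Named genes were the 10 members, the largest called rise and fall of each other list in Tet-PTF1a and in Tet-MIST1 among genes with a mean above 1 CPM, TYMS, TK1, SLC28A1, SLC28A3 and SAMHD1 by name, the 3 genes most like SLC29A1, DCK and RRM2, and PTF1A and BHLHA15; other genes were named after their values were seen. The scripts were tested on simulated data. Nothing states that replicates were separate cultures beyond the label of biological replicate, so that p-values measure the spread between these libraries.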

Additional observations from a re-analysis of the deposited data

Results flagged for a closer look

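In 58 groups of 4 libraries, the gap between an extreme library and its nearest neighbour, as a share of the group's range, exceeded Dixon's critical value at the 95% level in 4, and chance gives about 1 in 20 groups. DCTD in Tet-PTF1a Dox replicate 3 was high (0.923 of the range, 81.3 CPM against 78.7 to 78.9). NT5C2 in Tet-PTF1a Dox replicate 1 was low (0.860, 163 CPM against 168 to 169), and in Tet-MIST1 Control replicate 2 it was high (0.831, 150 CPM against 142 to 144). RRM2 in Tet-PTF1a Dox replicate 3 was low (0.864, 343 CPM against 355 to 357).

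The response to Dox differed between lines by the interaction test for 2 genes against Tet-One, SLC29A1 (difference of log2 fold changes 0.25) and RRM2 (-0.30). Between Tet-PTF1a and Tet-MIST1 it differed for 5 genes, SLC29A1 (0.32), CMPK1 (0.16), DCTD (0.24), NT5C2 (-0.26) and RRM2 (-0.36), of which the CMPK1 call was lost in 11 of the 16 fits that left out a library.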

How the results depend on the processing

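Over settings other than leaving out a library, 507 of the members' fold changes kept their direction and side of the threshold, 15 lost a call, 4 gained a call and 5 changed sign; leaving out a library gave 932, 33, 7 and 28. In Tet-MIST1 the number of members called was 1, and 2 with DESeq2, and 0 to 2 with a library left out. In Tet-PTF1a it was 7, and 3 (SLC29A1, NT5C2 and RRM2) with all 24 libraries in a single fit, and 6 to 8 with a library left out. For Tet-PTF1a against Tet-One it was 2, and 2 to 5 with a library left out, the 5 without Tet-One Dox replicate 1. The cause was not tested.

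Correlations of same-numbered deviations ran from -0.24 to 0.18, so that no pairing by replicate number was seen. With 4 libraries per group, and Tet-One Dox replicate 1 standing apart, this cannot show that the libraries were unpaired. With the replicate number as a block, 0 members were called in Tet-MIST1 (RRM2 FDR 0.0974 by edgeR) and 0 for Tet-PTF1a against Tet-One (SLC29A1 FDR 0.0841 and RRM2 FDR 0.0733 by edgeR). CMPK1 between Tet-PTF1a and Tet-MIST1 had an FDR of 0.0867, and all genes called numbered 1463 in place of 2812 in Tet-MIST1 and 83 in place of 231 for Tet-MIST1 against Tet-One.

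Over all genes, the fit of 24 libraries called 1705 in Tet-MIST1 and 3131 in place of 6775 in Tet-PTF1a, and DESeq2 called 499 for Tet-MIST1 against Tet-One. With a library left out, counts ran from 1436 to 3770 in Tet-MIST1, from 144 to 1930 for Tet-MIST1 against Tet-One and from 1393 to 4154 (1736 with none left out) for Tet-PTF1a against Tet-One, both highest without Tet-One Dox replicate 1. With library size scaling the share of higher calls moved from 43.0% to 54.1% for Tet-PTF1a against Tet-One. Sign changes, all of differences not called, were RRM1 in Tet-One (-0.0028), RRM2B in Tet-PTF1a (0.029) and RRM1 between the Tet-PTF1a and Tet-MIST1 responses (0.026) with library size scaling, CMPK1 in Tet-MIST1 (0.0031) with 24 libraries, and CMPK1 between Tet-PTF1a and Tet-MIST1 Control (-0.026) with upper quartile scaling.

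With a library left out, log2 values changed sign in Tet-One for SLC29A2 (-0.093 to 0.0083), CMPK1 (-0.046 to 0.11), CDA (-0.31 to 0.0018), DCTD (-0.017 to 0.080) and RRM1 (-0.019 to 0.053), in Tet-MIST1 for SLC29A1 (-0.051 to 0.0026), DCK (-0.036 to 0.054) and CMPK1 (-0.037 to 0.037), and in Tet-PTF1a for RRM2B (-0.030 to 0.013). They did so between the responses of Tet-MIST1 and Tet-One for DCK (-0.093 to 0.0070), CMPK1 (-0.12 to 0.050), NT5C2 (-0.0094 to 0.099) and RRM2B (-0.021 to 0.079) and between those of Tet-PTF1a and Tet-MIST1 for SLC29A2 (-0.078 to 0.0034) and RRM1 (-0.034 to 0.0076). In Control they did so for RRM2B (-0.0029 to 0.086) between Tet-MIST1 and Tet-One and CMPK1 (-0.0080 to 0.023) between Tet-PTF1a and Tet-MIST1. Depth limited CDA, with 10 to 34 reads per library.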
